A study of Mus musculus with 14 samples.

Results

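The 10 genes described here, Mpeg1, Plek, Inpp5d, Spi1, Plcg2, Ptprc, Itgam, Itgb2, Laptm5 and Fcer1g, encode intracellular, adhesion and effector proteins of myeloid cells, and were chosen by name from the 22485 gene symbols of the deposited count table. Mpeg1, Plek and Inpp5d were chosen because they were higher after dissociation, so the values of dissociated against control tissue are given below as a description, and the test across all genes is not read as a result for these 10 genes. Of the 22485 symbols, 13063 had enough counts to be tested, and all 10 genes were among them. The study compared tissue of the hippocampal subregions CA1, CA3 and dentate gyrus (DG) that had been enzymatically dissociated with tissue that had been homogenised directly, in C57BL/6 mouse hippocampus and by RNA sequencing. For dissociation, tissue was left at room temperature for 75 min in pronase, a blend of bacterial proteases, at 1 mg/ml in aCSF (artificial cerebrospinal fluid), after which it was spun, broken up by vortexing and pipetting, and carried in aCSF containing 1% FBS. Control tissue was homogenised without these steps, and RNA of both was isolated with 1 kit. CA1 was represented by 3 dissociated and 3 control libraries, and CA3 and DG each by 2 dissociated and 2 control libraries. The authors' sample table names 1 mouse, 1 genotype (wild type), 1 sequencing job and 1 date throughout, and a p-value here therefore covers the spread among pieces of tissue from that animal and not among animals.

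In the brain, most cells of myeloid origin are microglia, the resident macrophages of the tissue, and smaller numbers of macrophages lie along vessels and at the borders. Spi1 encodes PU.1, the ETS-family transcription factor on which myeloid cell identity depends. At the surface, the integrin chains Itgam (CD11b) and Itgb2 (CD18) form complement receptor 3, Fcer1g is an adapter that carries activation motifs for Fc receptors, and Ptprc (CD45) is a tyrosine phosphatase that sets the activity of Src-family kinases. Inside the cell, Plcg2 cleaves membrane phosphoinositide to pass on the signals of such receptors, and Inpp5d (SHIP1) removes a phosphate from the lipid that PI3-kinase makes and so restrains them. Plek (pleckstrin) is a major protein kinase C substrate of blood cells, Laptm5 is a lysosomal membrane protein of haematopoietic cells, and Mpeg1 (perforin-2) is a pore-forming effector against engulfed bacteria. In bulk tissue, more cells of a type and more RNA per cell cannot be told apart, and this holds for every value below.

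Because PU.1 binds a purine-rich core and is itself a member of the group, the RefSeq promoter windows of the other genes (GRCm38.p6, 250 bases before to 50 after each start, 300 in all) were searched on both strands for GAGGAAGT and for its core GAGGAA, which every match of the longer motif also contains. Windows were found for 8 of the 10 genes, all but Spi1 and Itgb2. The last 100 bases before the start are shown for 4 genes, the 3 on which the choice turned and Itgam, the gene with the most matches, each 5′ to 3′ on the gene's own strand, with GAGGAA or its reverse complement TTCCTC in capitals.
Inpp5d (chr1:87620212-87620311, + strand): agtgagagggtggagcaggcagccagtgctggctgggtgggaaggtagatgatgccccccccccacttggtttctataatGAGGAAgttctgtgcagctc
Plek (chr11:17008719-17008818, - strand): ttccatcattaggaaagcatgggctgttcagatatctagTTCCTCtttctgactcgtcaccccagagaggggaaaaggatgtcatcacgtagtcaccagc
Itgam (chr7:128062540-128062639, + strand): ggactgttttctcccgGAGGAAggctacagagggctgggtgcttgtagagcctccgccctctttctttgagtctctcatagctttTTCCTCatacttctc
Mpeg1 (chr19:12460670-12460769, + strand): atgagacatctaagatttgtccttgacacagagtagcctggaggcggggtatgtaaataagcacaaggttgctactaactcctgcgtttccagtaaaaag
None of these 4 stretches overlaps an exon in GENCODE M21. GAGGAA was in 5 of the 9 windows of these 8 genes, against 28.3% of 32851 RefSeq windows of the same length. The 5 were windows of Inpp5d, Plek, Itgam, Laptm5 and Ptprc, and Ptprc had another window without it. Itgam held 3 matches, which began 84 and 15 bases before the start and 32 bases after it, and Plek held 1, which began 61 bases before. The longer GAGGAAGT was in 1 window, that of Inpp5d 20 bases before the start, against 3.2% of all windows. The windows of Mpeg1, Plcg2 and Fcer1g held neither string. A match of letters is a description of the sequence and was not tested as a binding site.

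Total estimated counts ran from 65887 to 4782767 in the 7 dissociated libraries and from 1285654 to 6646655 in the 7 control libraries. The 3 libraries below 500000 counts were all dissociated ones: CA1 replicate 2 with 135065, CA1 replicate 3 with 300812 and DG replicate 3 with 65887. In the shallowest, 3 counts, taken here as the limit for a count of 0, are worth 46.8 CPM (counts scaled by the TMM-adjusted library size). This is above the mean control level of every gene of the group. The 95% exact Poisson interval for a count of 0 in that library reaches 57.6 CPM. Such limits and the intervals given below cover counting error only. In these 3 libraries a single count is worth several CPM or more, so their values are the least precise ones given.

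Per unit of transcript length, the 10 genes covered a wide range of levels in control tissue. Over the 7 control libraries Laptm5 had the highest median, 40.4 TPM (transcript abundance corrected for effective length, range 30.2 to 82.8), followed by Fcer1g at 23.2 (20.5 to 37.5) and Plek at 19.4 (11.6 to 29.8). A middle group followed, with medians of 10.4 TPM for Mpeg1 (6.79 to 16.3), 9.55 for Spi1 (2.85 to 24.4), 9.14 for Itgam (4.53 to 12.8), 6.88 for Itgb2 (2.74 to 9.52) and 5.07 for Inpp5d (1.02 to 12.9). Plcg2, at 2.70 TPM (0.762 to 6.84), and Ptprc, at 1.73 TPM (0.00 to 3.17), were the lowest. The ranges of each gene and its neighbour in this order overlapped in every case. Within libraries, Laptm5 was above Fcer1g and Plek was above Mpeg1 in each of the 7 control libraries. The other neighbours changed order between libraries, so that their order is not resolved here.

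The summed level of the 10 genes was higher in every dissociated library than in any control library. This sum includes Mpeg1, Plek and Inpp5d, which were chosen because they were higher after dissociation, so the separation is partly set by the choice. In DG dissociated replicate 3 these 3 genes had 93.7, 109 and 62.4 CPM, and in replicate 4 they had 46.3, 137 and 28.1 CPM. The sum of all 10 was 508, 992 and 548 CPM in the CA1 dissociated libraries, 364 and 826 in CA3 and 390.2 and 342 in DG, against 165, 134 and 150.4 CPM in the CA1 control libraries, 152 and 173 in CA3 and 153 and 169 in DG. The means were 567 ± 249.7 CPM in dissociated and 157 ± 13.3 CPM in control tissue (SD, n = 7 each). The control libraries of the 3 regions thus lay within a narrow band, and the dissociated ones spread widely. The highest sum was that of CA1 dissociated replicate 2, a library of 135065 counts, where it rested on 145 counts. Pooled over libraries, Laptm5 held 28.3% of the group's counts in dissociated and 25.7% in control tissue, Plek 21.3% and 24.1%, and Mpeg1 16.5% and 14.7%. Of the pooled 4541 dissociated counts, 2226 came from 1 library of CA1. Library by library the shares varied: in the 4 dissociated libraries of at least 500000 counts Laptm5 held 9.18% to 30.6% and Plek 19.0% to 40.1%, against 19.6% to 39.5% and 12.4% to 33.6% in the 7 control libraries.

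**Figure D1:**
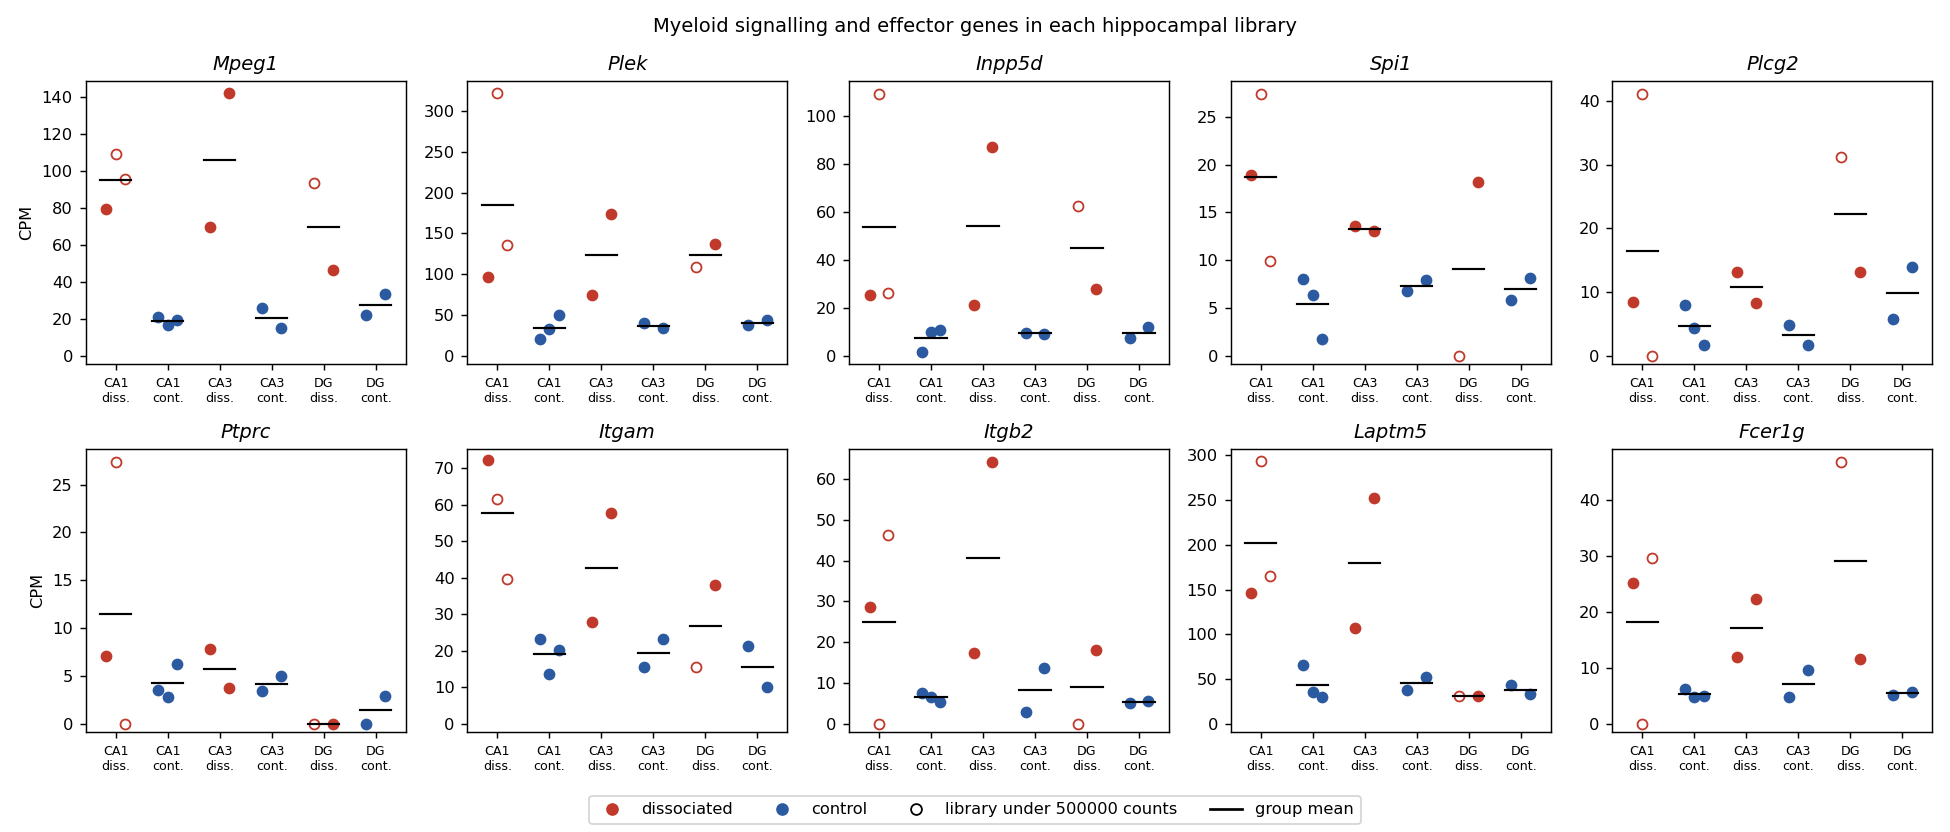
Level of each of the 10 genes in every library (y axis, CPM), with dissociated (diss.) and control (cont.) libraries of CA1, CA3 and DG side by side, open circles for libraries under 500000 counts and a bar for the group mean. Mpeg1, Plek and Inpp5d are the 3 genes with every dissociated point above every control point in all regions, and Laptm5 is the gene whose dissociated DG points, at 31.2 and 31.4 CPM, lie below the control ones.

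Spi1, the transcription factor, had 19.0, 27.4 and 9.90 CPM in CA1 dissociated tissue, 13.6 and 13.02 in CA3 and 0 and 18.2 in DG. In control tissue it had 8.05, 6.37 and 1.79 CPM in CA1, 6.80 and 7.92 in CA3 and 5.86 and 8.16 in DG. Dissociated libraries lay above the control libraries in CA1 and CA3 and overlapped with them in DG, where the value of 0 came from the library of 65887 counts. The fold change of dissociated over control tissue, with region in the model, was 1.25 ± 0.50 on the log2 scale (SE).

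Of the complement receptor chains, Itgam had 72.2, 61.5 and 39.6 CPM in CA1 dissociated tissue, 28.0 and 57.6 in CA3 and 15.6 and 38.0 in DG, against 23.3, 13.8 and 20.1 CPM in CA1 control tissue, 15.5 and 23.3 in CA3 and 21.3 and 10.1 in DG. Groups did not overlap in CA1 and CA3, and in DG the lower dissociated value rested on 1 count. The log2 fold change of Itgam was 1.35 ± 0.32 (SE). The symbol sums 2 gene identifiers whose exons share 3450 bases, the second of them named Gm49368 in GENCODE M21, so its level covers both. Itgb2 had 28.5, 0 and 46.2 CPM in CA1 dissociated tissue, 17.3 and 64.1 in CA3 and 0 and 18.2 in DG, against 7.60, 6.51 and 5.37 CPM in CA1 control tissue, 2.91 and 13.8 in CA3 and 5.13 and 5.60 in DG. Both values of 0 were in libraries under 500000 counts, where 3 counts would be 20.5 and 46.8 CPM. The other 5 dissociated libraries of Itgb2 were all above the highest control value, and its log2 fold change over all libraries was 1.98 ± 0.51 (SE).

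The Fc receptor adapter Fcer1g showed the same arrangement, with 25.1, 0 and 29.7 CPM in CA1 dissociated tissue, 11.9 and 22.3 in CA3 and 46.8 and 11.6 in DG. In control tissue it had 6.26, 4.74 and 4.92 CPM in CA1, 4.86 and 9.58 in CA3 and 5.13 and 5.76 in DG. All dissociated libraries but 1 were above every control library, the exception being CA1 replicate 2 at 0 counts, and the highest value of 46.8 CPM was 3 counts in the shallowest library. The log2 fold change was 1.72 ± 0.51 (SE).

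Ptprc was the gene of the group with the smallest fold change, 0.50 ± 0.86 on the log2 scale (SE), and the one seen least. It had 7.08, 27.4 and 0 CPM in CA1 dissociated tissue, 7.81 and 3.72 in CA3 and 0 in both DG libraries, against 3.58, 2.81 and 6.27 CPM in CA1 control tissue, 3.40 and 5.001 in CA3 and 0 and 2.88 in DG. Dissociated and control values overlapped in every region, and the 27.4 CPM in CA1 replicate 2 were 4 counts. In DG the 2 dissociated libraries together held 0 counts, with a 95% exact Poisson interval of 0 to 5.51 CPM over the pooled libraries. The control libraries held 18 counts, 2.36 CPM (95% exact Poisson interval 1.40 to 3.74). A fall of Ptprc in DG, or a rise to below 5.51 CPM, was thus not detectable at this depth. No fold is given for it there.

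Of the intracellular enzymes, Inpp5d had 25.3, 109 and 26.4 CPM in CA1 dissociated tissue, 21.4 and 87.4 in CA3 and 62.4 and 28.1 in DG, against 1.79, 10.2 and 10.7 CPM in CA1 control tissue, 9.71 and 9.17 in CA3 and 7.33 and 12.01 in DG. The lowest dissociated value, 21.4 CPM, was above the highest control value, 12.01 CPM, and the log2 fold change was 2.39 ± 0.47 (SE). This was the largest of the group over all 14 libraries, but not without CA1 dissociated replicate 2, where it was 2.07 against 2.15 for Itgb2, nor without the 3 libraries under 500000 counts, where it was 2.00 against 2.11. Within the dissociated group 3 libraries were at 62.4 CPM or above and 4 at 28.1 CPM or below. Of the 3 higher ones, CA1 replicate 2 rested on 16 counts and DG replicate 3 on 4 counts. Its estimated counts moved between deposited transcripts from library to library: Inpp5d-003, of 3854 bases, took 100% of the gene's counts in DG dissociated replicate 3 and 0% in DG dissociated replicate 4, and Inpp5d-002, of 4880 bases, took 100% in DG control replicate 3 and 0% in DG control replicate 2. For this gene only the sum over transcripts is used.

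Plcg2 had 8.45, 41.0 and 0 CPM in CA1 dissociated tissue, 13.2 and 8.37 in CA3 and 31.2 and 13.2 in DG. In control tissue it had 8.05, 4.44 and 1.79 CPM in CA1, 4.86 and 1.67 in CA3 and 5.86 and 13.9 in DG. Dissociated values lay above control values in CA3 and overlapped with them in CA1 and DG. The 2 highest values were 6 and 2 counts in libraries under 500000 counts, and the log2 fold change was 1.38 ± 0.65 (SE).

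The protein kinase C substrate Plek had 96.8, 321 and 135 CPM in CA1 dissociated tissue, 74.0 and 174 in CA3 and 109 and 137 in DG, against 20.6, 32.7 and 50.6 CPM in CA1 control tissue, 39.8 and 34.2 in CA3 and 37.4 and 44.0 in DG. No dissociated library overlapped with a control library, and the log2 fold change was 1.96 ± 0.30 (SE). The highest value, in CA1 replicate 2, rested on 47 counts and had a 95% exact Poisson interval of 236 to 427 CPM, and the 109 CPM of DG replicate 3 rested on 7 counts. Of the 4486 exon bases of Plek, 199 overlap with exons of Cnrip1 on the opposite strand; whether reads were assigned by strand is not given in the sources used here, so that reads there could be split between both genes.

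The pore-forming effector Mpeg1 had 79.7, 109 and 95.7 CPM in CA1 dissociated tissue, 69.5 and 142 in CA3 and 93.7 and 46.3 in DG, against 21.0, 16.6 and 19.2 CPM in CA1 control tissue, 25.7 and 15.0 in CA3 and 21.99 and 33.5 in DG. The groups did not overlap, and the log2 fold change was 2.03 ± 0.29 (SE). The gene has 1 deposited transcript, of 4335 bases, so its counts could not move between transcripts. The 109 CPM of CA1 replicate 2 were 16 counts, and the 93.7 CPM of DG replicate 3 were 6 counts (95% exact Poisson interval 34.4 to 204 CPM). Laptm5, the lysosomal membrane protein, had 146, 294 and 165 CPM in CA1 dissociated tissue, 107 and 253 in CA3 and 31.2 and 31.4 in DG, against 65.3, 36.0 and 29.5 CPM in CA1 control tissue, 38.4 and 52.9 in CA3 and 43.2 and 33.1 in DG. Its dissociated libraries were far above the control ones in CA1 and CA3 and just below them in DG, on 2 and 19 counts, and its log2 fold change over all regions was 1.61 ± 0.35 (SE).

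Between dissociated and control tissue, 5 of the 10 genes passed an adjusted p of 0.05 in edgeR's quasi-likelihood test, Mpeg1, Plek, Inpp5d, Laptm5 and Itgam, all higher in dissociated tissue, against 0.727% of all tested genes called higher. Since this contrast served to choose the genes, nothing is read from that count. The median log2 fold change was 1.66 over the 10 genes and -0.11 over the 13063 tested genes. The number called depended on single libraries, both among the 10 genes and among all tested genes, of which 95 were called higher in the full data. Without CA3 dissociated replicate 4 it was 2 of the 10, and 38 of all tested genes were called higher. It was 3 without any 1 of CA1 control replicates 2 and 3 and CA3 control replicates 1 and 4. In those fits 37, 38, 61 and 55 of all tested genes were called higher, in the same order. Without the 3 libraries under 500000 counts it was 2, and 14 of all tested genes were called higher. Every dissociated library was above every control library of the same region for 6 of the 10 genes in CA1 (7.16% of all tested genes), 9 in CA3 (15.7%) and 4 in DG (8.25%). In all 3 regions this held for Mpeg1, Plek and Inpp5d, the 3 genes the choice turned on, and for 0.597% of all tested genes.

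**Figure D2:**
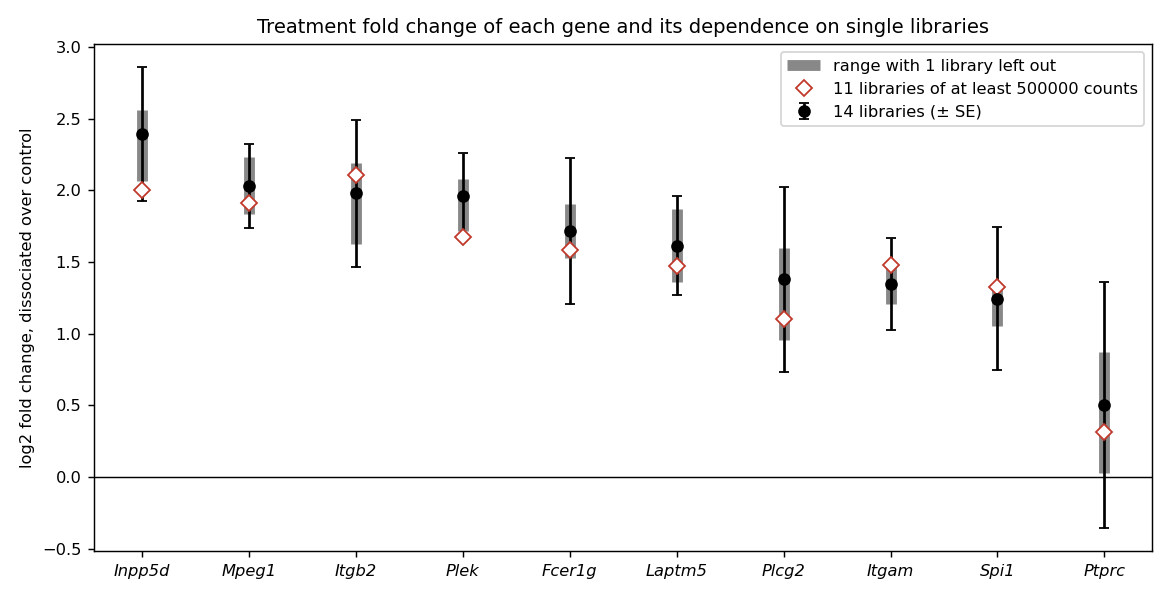
Log2 fold change of dissociated over control tissue for each gene (black points, ± SE, 14 libraries), with the range over the 14 fits that leave out 1 library (grey bars) and the value from the 11 libraries of at least 500000 counts (open diamonds). The estimates of all 10 genes stay above 0 in these fits, from 2.39 for Inpp5d to 0.50 for Ptprc in the full data.

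Regional differences did not enter the choice of the genes and could be tested. None of the 10 genes differed between CA1 and DG, between CA3 and DG or between CA1 and CA3 by edgeR's quasi-likelihood test with treatment as a term, against 4.06%, 1.77% and 0.115% of all tested genes called in those contrasts. Unadjusted p-values under 0.05 were reached by 2050 genes between CA1 and DG, 1572 between CA3 and DG and 702 between CA1 and CA3. The median log2 fold changes of the 10 genes were 0.02, 0.11 and 0.00 in the same order, and -0.04, 0.04 and -0.06 over all tested genes. DESeq2 also called none of the 10 in these contrasts, and neither did edgeR on the 7 control libraries alone.

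The gene nearest to a regional difference was Laptm5, which was higher by 0.99 ± 0.42 in CA1 than in DG (log2, SE; edgeR adjusted p = 0.239) and by 0.97 ± 0.45 in CA3 than in DG (edgeR adjusted p = 0.382). Without the filter on low counts, the first of these was called, with 1.08 on the log2 scale. Among control libraries alone Laptm5 had a mean of 43.6 ± 19.1 CPM in CA1 (SD, n = 3), 45.6 ± 10.3 in CA3 (n = 2) and 38.2 ± 7.15 in DG (n = 2), values that overlapped. Mpeg1 differed little between regions, by -0.13 ± 0.35 between CA1 and DG and 0.03 ± 0.38 between CA3 and DG (log2, SE), and Plek by 0.07 ± 0.36 and -0.13 ± 0.38. For Ptprc the estimate of CA1 over DG was 1.96 ± 1.09 (log2, SE; edgeR adjusted p = 0.416) and rests on DG libraries of which 3 of 4 held 0 counts. Without DG control replicate 3, the one with counts, all DG libraries are at 0 and no fold can be given. For Plcg2 the estimate of CA3 over DG was -1.26 ± 0.83 (edgeR adjusted p = 0.618), and -0.76 without DG control replicate 3. The value of Laptm5 between CA1 and DG ran from 0.59, without DG dissociated replicate 4, to 1.41, without DG control replicate 2, and that between CA3 and DG from 0.55 to 1.36, without the same libraries. These standard errors leave room for sizeable differences in the genes of low count.

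**Figure D3:**
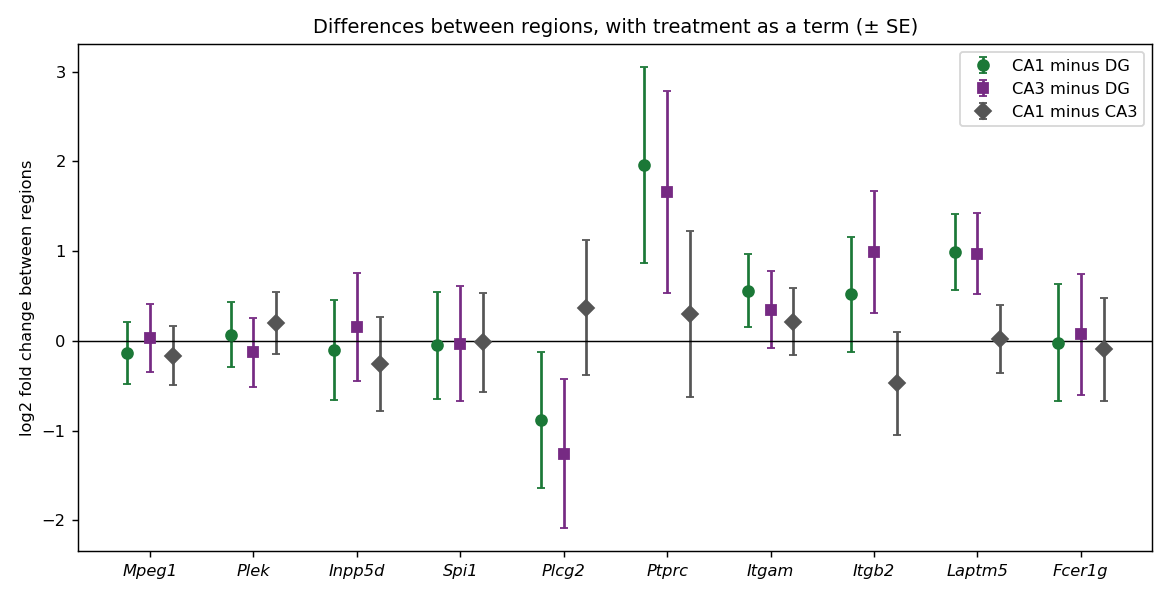
Log2 fold change between regions for each gene (± SE), with treatment as a term, for CA1 minus DG, CA3 minus DG and CA1 minus CA3. Mpeg1, Plek, Inpp5d, Spi1 and Fcer1g lie near 0, Laptm5 lies at 0.99 and 0.97 against DG, and no value shown passed the test.

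Whether the difference between dissociated and control tissue itself varied by region was tested as an interaction, which also did not enter the choice. No gene of the 10 and 0 of the 13063 tested genes (0.0%) passed edgeR's quasi-likelihood test of the interaction, with 1112 genes at an unadjusted p under 0.05 and 26 genes called by DESeq2. Laptm5 had the smallest unadjusted p of the 10, 0.0105, with an edgeR adjusted p of 0.463. Its log2 fold change of dissociated over control tissue was 2.16 ± 0.42 in CA1, 1.97 ± 0.49 in CA3 and -0.27 ± 0.62 in DG (SE). The fold change in CA1 exceeded that in DG by 2.43 ± 0.74 on the log2 scale (edgeR adjusted p = 0.195). For Mpeg1 the within-region values were 2.29 ± 0.41 in CA1, 2.37 ± 0.49 in CA3 and 1.06 ± 0.55 in DG, and its interaction had an edgeR adjusted p of 0.711. Plek had 2.32 ± 0.47, 1.73 ± 0.54 and 1.64 ± 0.58, and Inpp5d 2.56 ± 0.74, 2.50 ± 0.84 and 1.89 ± 0.96 in the same order of regions. The libraries under 500000 counts carry part of these values. With them left out, some ratios of mean CPM in dissociated over control tissue fell and others rose, with 1 dissociated library in each case. In CA1 the ratio was 2.80 rather than 5.33 for Plek, 3.34 rather than 7.08 for Inpp5d and 3.79 rather than 3.03 for Itgam. In DG it was 1.67 rather than 2.52 for Mpeg1 and 2.91 rather than 4.68 for Inpp5d. Also in DG it was 3.37 rather than 3.03 for Plek and 3.39 rather than 1.69 for Itgb2.

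**Figure D4:**
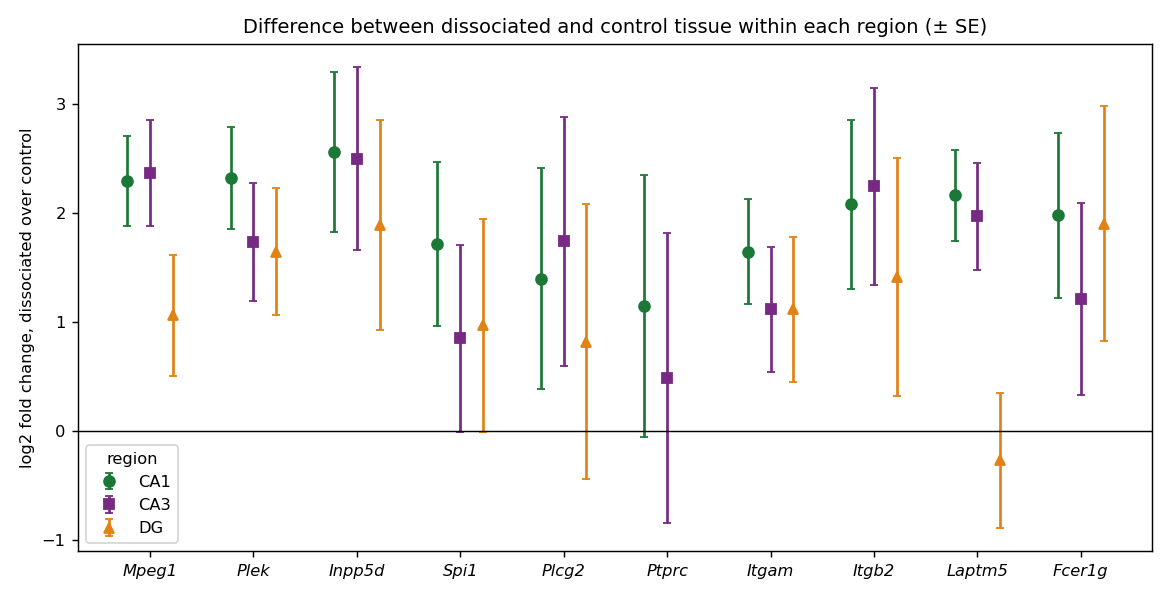
Log2 fold change of dissociated over control tissue within CA1, CA3 and DG for each gene (± SE), from the model with 1 mean per group; Ptprc in DG is not drawn because its dissociated libraries held 0 counts. Laptm5 in DG, at -0.27, is the only drawn value below 0.

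The low Laptm5 value in DG depended on the scale. Summed over transcripts, Laptm5 had 82.0 and 88.6 TPM in the DG dissociated libraries and 37.3 and 36.0 TPM in the DG control libraries, so that on this scale dissociated tissue was higher, with a log2 ratio of the means of 1.22, against -0.29 on the CPM scale. The longest deposited transcript, Laptm5-001 of 2600 bases, took 84.7% to 97.9% of the gene's estimated counts in the 7 control libraries and 70.4% to 95.3% in the 5 dissociated libraries of CA1 and CA3. In both DG dissociated libraries it was at 0: the 2 counts of replicate 3 were all assigned to Laptm5-009 of 723 bases, and in replicate 4 that transcript took 49.6% and Laptm5-010 of 1322 bases took 50.4% of 19 counts. A count on a shorter transcript weighs more in TPM. Without the library of 65887 counts, the log2 ratio on the CPM scale was -0.28.

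**Figure D5:**
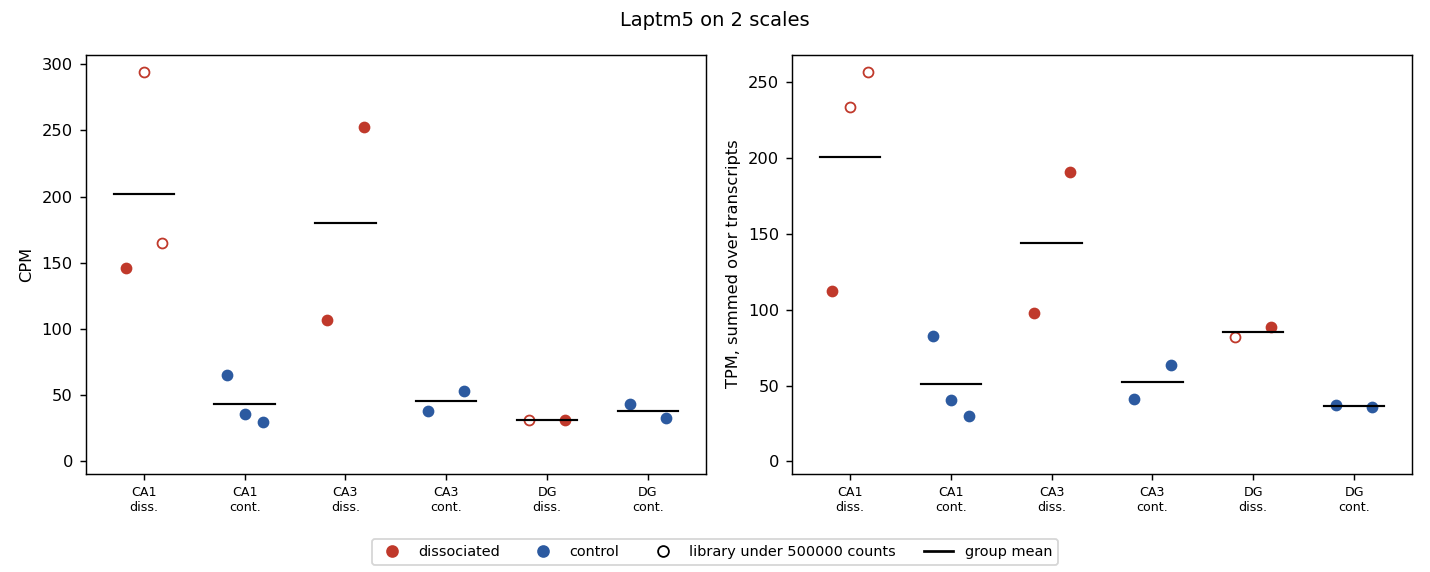
Laptm5 in every library as CPM (left) and as TPM summed over transcripts (right), with open circles for libraries under 500000 counts and a bar for the group mean. In DG the dissociated points lie below the control points on the left, at 31.2 and 31.4 CPM, and above them on the right, at 82.0 and 88.6 TPM.

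Genes that work beside these 10 in the same pathways were also read between dissociated and control tissue. In that test 0.727% of all tested genes were called higher. Of all 13063 tested genes, 41.9% had a positive log2 fold change. Of 20 tested genes of immunoreceptor (ITAM) signalling, 0 were called by edgeR and 18 had a positive log2 fold change, with a median of 1.00. Among them Tyrobp, the adapter that pairs with microglial receptors, averaged 27.3 ± 24.4 CPM in dissociated and 6.76 ± 3.52 CPM in control tissue (SD, n = 7 each), and Syk, the kinase that binds such adapters, 10.8 ± 9.72 and 3.17 ± 1.30 CPM. Neither was called, and other genes of the list were level or lower, with log2 fold changes of 0.04 ± 0.20 for Sirpa, -0.14 ± 0.97 for Card9 and -0.82 ± 0.56 for Sh2d3c (SE). Of 15 tested genes of leukocyte integrins and their cytoskeleton, 1 was called, Tln1 (talin, which links integrin tails to actin), at 110.1 ± 32.8 CPM in dissociated and 44.3 ± 13.3 CPM in control tissue, a log2 fold change of 1.32 ± 0.23 (SE). That list had 13 positive values and a median of 1.72, and its negative values were -0.91 ± 0.32 for the integrin chain Itga4 and -0.23 ± 0.33 for the actin-binding Coro1a (log2, SE). Of 14 tested myeloid transcription factors 0 were called and 12 were positive, with a median of 0.75. Irf8, a partner of PU.1, averaged 20.7 ± 16.2 CPM in dissociated and 4.76 ± 1.55 CPM in control tissue, while Mef2c had a log2 fold change of -0.01 ± 0.30 (SE). Of 4 tested Fc receptor genes, 1 was called, Fcrls, an Fc receptor-like gene of microglia, at 84.9 ± 80.2 CPM in dissociated and 22.1 ± 7.83 CPM in control tissue, and all 4 were positive.

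Markers of the cell types that could hold these transcripts were read beside them. All 16 homeostatic microglia markers had a positive fold change, 8 of 16 were called higher (among them C1qa, C1qb, C1qc, Csf1r, Ctss, Cx3cr1 and Selplg), and their median log2 fold change was 1.69; their summed level was 669.5 to 2612 CPM in dissociated and 338 to 589.9 CPM in control libraries. Perivascular macrophage markers summed to 4.96 to 62.4 CPM in dissociated and 3.67 to 28.6 CPM in control libraries. The highest value was 4 counts in DG dissociated replicate 3 and the next was 53.0 CPM. Of these 8 markers 1 (Stab1) passed the filter on low counts and was not called, with a log2 fold change of 1.56 ± 0.455 (SE). Stab1 made up most of the mean sum, at 35.1 ± 17.4 CPM in dissociated and 10.9 ± 8.62 CPM in control tissue (SD, n = 7 each). The next highest, Cd163, averaged 1.95 and 0.717 CPM, and Ms4a7 was at 0 in every library. Of 12 monocyte and neutrophil markers, 0 passed the filter on low counts and 7 were at 0 in every library (Plac8, Chil3, S100a8, S100a9, Ngp, Ltf and Mmp8), and their sum was 0 to 26.4 CPM in dissociated and 0 to 3.40 CPM in control libraries. That highest sum was 8 counts in CA1 dissociated replicate 3, and the 4 dissociated libraries of at least 500000 counts had at most 0.822 CPM. Of 12 lymphocyte and mast cell markers 2 were tested and 0 called, 4 were at 0 in every library (among them Cd3e, Tpsb2 and Cma1), and their sum was 0 to 20.5 CPM in dissociated and 1.34 to 8.80 CPM in control libraries, the highest being 3 counts in CA1 dissociated replicate 2. Fcer1a, the receptor chain that Fcer1g serves in mast cells, was at 0 in every library.

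The oligodendrocyte markers were also higher in dissociated tissue, with 8 of 10 called higher, a median log2 fold change of 1.94 and a summed level of 1359 to 12327 CPM in dissociated against 597 to 3768 CPM in control libraries. Red blood cell markers had 0 of 5 called, a median of 1.13 and sums of 20.5 to 343 CPM in dissociated and 36.1 to 170.4 CPM in control libraries, where 20.5 CPM were 3 counts and 343 CPM were 22 counts in libraries under 500000 counts. Astrocyte markers had 0 of 10 called with a median of 0.63 and sums of 2039 to 7218 CPM in dissociated and 2201 to 3604 CPM in control libraries, endothelial markers 0 of 9 with 0.45 and sums of 78.0 to 321 and 86.4 to 207 CPM, and neuron markers 0 of 10 with -0.15 and sums of 5198 to 15371 and 9822 to 12494 CPM, in the same order of tissue. In the 4 dissociated libraries of at least 500000 counts the sums were 669.5 to 1783 CPM for microglia, 3010.0 to 7218 for astrocyte, 96.6 to 254.8 for endothelial and 9397 to 15371 CPM for neuron markers. A positive fold change was also seen for all 10 oligodendrocyte, all 10 astrocyte and all 5 red blood cell markers. The same held for 8 of 9 endothelial and 3 of 10 neuron markers. The part of any of these cell types in the levels of the 10 genes was not tested.

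Among the 8 genes whose profile over the 14 libraries was most like the summed level of the 10 genes, from 11505 genes compared, were C1qb, Csf1r, Cx3cr1, Slco2b1, Ctss, Tnf and Il1a. Likeness was the root mean square difference in centred log2(CPM + 1), which was 0.256 for C1qb, a chain of complement C1q, and 0.322 for Csf1r, the receptor of the main microglial growth factor. It reached 0.469 for Il1a, against a median of 1.46 and a 5th percentile of 0.903 over all genes compared. Of the 8 genes, 5 are in the list of homeostatic microglia markers, and 4 of the 8 were among the nearest 8 when the 3 libraries under 500000 counts were left out. The libraries share the contrast of dissociated and control tissue that chose the genes, so the likeness includes it.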

How the data were processed

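Per the submitters' processing notes, FastQC, cutadapt, kallisto and DESeq2 were used; no version is given there. Not given in the sources used here: genome build, annotation and strandedness. The authors deposited estimated counts and TPM for 58716 transcripts per library, per the file headers, and a gene table of estimated counts, which lay within 0.5 of the transcript counts summed by symbol. The transcript and effective lengths deposited by the authors served only to describe transcripts. TPM keeps no depth and is corrected for effective length, so 1 count on a short transcript can set a gene's TPM in a shallow library.

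The test on these whole gene counts was that of edgeR 4.0.16 under R 4.3.3 (filterByExpr on the 6 groups, minimum count 10, minimum total 15; TMM; quasi-likelihood F test; Benjamini-Hochberg over 13063 genes, threshold 0.05). Treatment and region contrasts came from an additive model (10 residual degrees of freedom), and within-region values and the interaction from 1 mean per group (8 residual degrees of freedom). Standard errors were derived from the F statistic. CPM are counts scaled by the TMM-adjusted library size. Intervals are 95% exact Poisson. Depth ranged from 65887 to 6646655 counts. On simulated data, treatment fold changes of 2 on the log2 scale were recovered for 95.8% of 96 changed genes among 12538, and those of 1 for 33% of 94. The simulation gave every gene the same dispersion and all libraries the same base profile. Its recovery shares therefore need not hold for genes of wider spread. Between CA1 and DG, 90.7% of 97 genes changed by 2 and 19.1% of 94 genes changed by 1 were recovered among 12572. For the interaction, 12.4% of 97 changed genes with a difference of 2 on the log2 scale were recovered among 12564 genes. Of 92 genes with a difference of 1, 0% were recovered.

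Alternatives were DESeq2 1.42.0, RLE scaling, no filter on low counts, limma 3.58.1 on log2(TPM + 1), the replicate number as a block, control libraries alone, leaving out each library and leaving out those under 500000 counts. Gene identifiers were looked up in GENCODE M21 for GRCm38 coordinates, and promoters are RefSeq windows of GRCm38.p6. Named genes were the 10 genes, genes of fixed pathway and marker lists, and the 8 genes of at least 5 mean CPM nearest to the summed profile. A few genes that this rule names are not reported here. The genes and lists were chosen with earlier results of these data known.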

Additional observations from a re-analysis of the deposited data

Results flagged for a closer look

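Laptm5 drew attention because its dissociated libraries lay above every control library in CA1 and CA3 and below every control library in DG, where 32.2% of all tested genes also lay below. The difference between regions was tested as an interaction and was not called: the edgeR adjusted p over 13063 genes was 0.463, and it ran from 0.299 to 0.858 with 1 library left out at a time. The mean levels were 202 CPM in dissociated and 43.6 CPM in control tissue of CA1 (n = 3 each), 179.9 and 45.6 CPM in CA3, and 31.3 and 38.2 CPM in DG (n = 2 each). The DG dissociated values rested on 2 counts (31.2 CPM, 95% exact Poisson interval 3.78 to 113) and 19 counts (31.4 CPM, 18.9 to 49.1). On the TPM scale the DG direction was the opposite one, 85.3 in dissociated and 36.7 in control tissue.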

How the results depend on the processing

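The main tests called 101 genes between dissociated and control tissue (95 higher and 6 lower), 530 between CA1 and DG, 231 between CA3 and DG, 15 between CA1 and CA3 and 0 for the interaction. DESeq2 called 478 (411 higher, 67 lower), 998, 492, 56 and 26 in the same order, and no filter on low counts gave 345 (275 and 70), 900, 616, 127 and 128. limma on log2(TPM + 1) called 55 (7 and 48), 164, 17, 0 and 34; on that scale the median treatment fold change of all genes was -0.64, against -0.11 in the main test, and that of the 10 genes 0.83. RLE scaling gave 160 (154 and 6) for treatment, with a median of -0.01 over all genes. Without the libraries under 500000 counts the counts were 14 (all higher), 801, 366, 71 and 5, and control libraries alone gave 132 between CA3 and DG and 8 between CA1 and CA3. Of the 10 genes, DESeq2 called 8 for treatment, limma 1 (Laptm5) and the fit without the 3 shallow libraries 2, and no filter on low counts called 1 between CA1 and DG. Leaving out 1 library at a time gave 38 to 254 genes for treatment, 212 to 771 between CA1 and DG, 57 to 594 between CA3 and DG, 7 to 73 between CA1 and CA3 and 0 to 5 for the interaction, and of the 10 genes 2 to 5 for treatment and 0 to 0 in each other test. The reversed value was the log2 ratio of Laptm5 in DG, 1.22 on the TPM scale against -0.29 on the CPM scale; TPM by construction weighs counts on shorter transcripts more. For the other changes the cause was not tested. Deviations from the group mean were correlated between same-numbered libraries over 11514 genes. The values were -0.01, 0.02 and 0.03 in CA1, 0.08 and 0.08 in CA3 and -0.19 in DG. With 2 libraries per group in CA3 and DG, the deviations mirror each other and the CA3 value is 1 value repeated. The check therefore cannot decide there whether same-numbered libraries deviate together. The main tests did not take the numbers as pairs. With the replicate block within region, on 12 libraries, 396 genes (233 and 163) were called for treatment and 51 for the interaction. With the replicate block by number across regions, an alternative chosen after seeing the data, 93 genes (84 and 9) were called for treatment. That block called 281 between CA1 and DG, 123 between CA3 and DG, 27 between CA1 and CA3 and 3 for the interaction. Either replicate block called 4 of the 10 genes for treatment, and Itgam was the one lost. Depth limits Spi1, Plcg2, Ptprc, Itgb2 and Fcer1g, each of which was at 0 counts in at least 1 library.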
